A study of Macaca fascicularis with 24 samples.

Results

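Punch 1 of each brain was compared with punches 2 and 3 of the same brain in 8 cynomolgus macaques (Macaca fascicularis), over 23 of the 24 libraries of the series. Members were chosen by the punch number in the labels: 8 libraries of punch 1, 8 of punch 2 and 7 of punch 3. Punch 3 of non-treated animal 1, a sparse library, was left out. Of the animals, 4 had received a divalent siRNA against Huntingtin and 4 were labelled only as non-treated. A divalent siRNA joins a couple of small interfering RNAs in 1 molecule, and such RNAs guide the breakdown of a matching transcript. Age, sex, dose, time after dosing and a control siRNA are not among the labels used here, and the labels do not say which brain region or side a punch number stands for. The question asked was whether the punch number marks a difference that is shared between brains.

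A tissue punch takes a small core that holds neurons, glia and vessel cells together. Gene expression is known to differ between gray and white matter and between brain regions, so cores of 1 brain need not be alike. In such bulk samples fewer cells of a type and less RNA per cell cannot be told apart. The files give Ensembl IDs without gene names, so genes are described here by level, size of change and constancy over animals, and the tissue could not be checked against cell type markers. The level of the Huntingtin transcript was not analysed here.

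Libraries held 6761946 to 15741415 counted reads. Punch 1 was deeper than the mean of the other punches in 5 of 8 animals, with differences of -2425540 to 6998950 reads (n = 8, exact sign-flip permutation p = 0.164, adjusted p = 0.531 over 4 measures). The number of genes with a read was higher by 75.1 ± 460 in punch 1 (SD, n = 8, exact permutation p = 0.688). One punch 1 library stood apart. In punch 1 of treated animal 1 the 12 most abundant genes, those above 1% of the reads of all libraries, made up 56.4% of the library (95% Wilson interval 56.3% to 56.4%, counting error only), 25.6 percentage points above the animal's other punches, where the other 7 animals differed by -8.12 to 5.47 points.

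Punch 1 differed from punches 2 and 3 in many genes, each by a small amount. Of 13634 genes tested, 2886 were called (21.2%, edgeR quasi-likelihood adjusted p under 0.05), 1619 higher in punch 1 (11.9%) and 1267 lower (9.29%), and 5058 had an unadjusted p under 0.05 (37.1%). These p-values rest on the spread left between libraries after the terms for animal and punch number. Punches 2 and 3 of a brain count as separate samples in it. The median log2 fold change was 0.29 for the genes called higher and -0.30 for those called lower, changes of 22.1% and -18.8%. Of the called genes 1735 (60.1%) differed by less than 1.25-fold, 173 (5.99%) by more than 1.5-fold and 18 by more than 2-fold, 9 in each direction. Over all genes tested, 1.97% differed by more than 1.5-fold and the median size was 0.17 on the log2 scale, against 0.29 among those called.

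Punches 2 and 3 were not told apart. In the same fit edgeR called 0 of 13634 genes between them (0%), with 818 at an unadjusted p under 0.05 (6%), limma-voom called 0, and DESeq2 called 4. Without non-treated animal 2 edgeR called 13 and without treated animal 1 it called 1. The contrast of punches 3 and 2 sets single punches against each other, where that of punch 1 uses the mean of punches 2 and 3. It is the less precise contrast, so the counts of calls are not of equal power. The genes called for punch 1 had a median size of 0.06 (log2) between punches 3 and 2, against 0.08 over all genes tested. Among them 3.64% had an unadjusted p under 0.05 between punches 3 and 2, against 6.63% of the genes not called. The called genes were picked with the same estimates of spread and differ in level from the rest. These values therefore describe them and test nothing. In the same fit, with its spread estimated over all 3 punches, punch 2 differed from punch 1 in 1689 genes (12.4%) and punch 3 in 1436 (10.5%). The punch 1 libraries are shared by both comparisons. Fits that left out punch 3 or punch 2 altogether called only 2 and 924 genes.

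The count of genes depended on how the punches were used. Punches 2 and 3 entered the fit as separate samples although they share a brain. With the counts of punches 2 and 3 summed, so that each animal gave 1 pair of samples, 1220 of 13649 genes were called (8.94%), 1216 of them among the 2886. Without the animal as a term only 9 genes were called, with punch 3 of non-treated animal 1 included 1132, and with libraries of punches 1 and 2 alone, or 1 and 3 alone, 2 and 924.

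Across the whole profile punch 1 was not clearly farther from its neighbours than they were from each other. Levels are given in CPM, the reads of a gene relative to the scaled total of its library. The distance between 2 punches, the root mean square difference in log2 CPM over the genes tested, was 0.475 ± 0.0669 between punches 1 and 2, 0.478 ± 0.0802 between 1 and 3 and 0.442 ± 0.0535 between 2 and 3 (SD, n = 7 animals with 3 punches). The mean distance to punch 1 exceeded the distance between 2 and 3 by 0.0342 ± 0.0678 and in 5 of 7 animals (exact sign-flip permutation p = 0.266, smallest possible 0.0156). With genes of at least 10 CPM alone the excess was 0.0605 (exact permutation p = 0.125).

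The main axis of variation within animals nevertheless set punch 1 apart in most of them. After each animal's mean was removed from log2 CPM, the first principal component held 21.6% of the remaining variance. Punch 1 had the highest score of its animal in 6 of 8 animals. In the other 2, non-treated animal 4 and treated animal 4, punch 1 scored 0.885 and 2.66, below punch 2 at 4.22 and 3.39. The highest scores were in punch 1 of treated animal 2 (30.8), non-treated animal 1 (30.4) and non-treated animal 3 (24.9). Non-treated animal 1 entered with 2 punches, so its scores mirror each other.

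**Figure D1:**
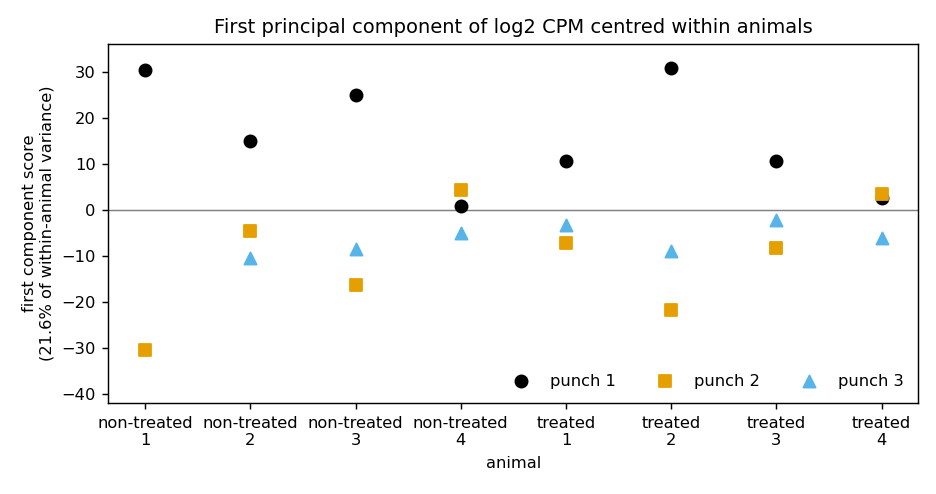
Score of each of the 23 libraries on the first principal component of log2 CPM centred within animals (vertical axis, no unit), by animal (horizontal axis), with 1 symbol per punch number. Punch 1 lies highest in 6 animals, and in non-treated animal 4 and treated animal 4 the punches lie close to 0.

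The direction of the change in punch 1 was related to the level of the gene. Level is the mean CPM over the 23 libraries. Among the 1262 genes of 100 to 1000 CPM, 405 rose in punch 1 (32.1%) and 84 fell (6.66%). Among the 68 genes over 1000 CPM, 20 rose (29.4%) and 0 fell. Genes of 10 to 100 CPM were called about as often in either direction, 954 higher (15.4%) and 865 lower (14.0%) of 6199. Genes of 1 to 10 CPM were called less often, 231 higher (4.25%) and 307 lower (5.64%) of 5440, and those under 1 CPM in 20 of 665 cases (3.01%). The median size of the called changes was 0.85 (log2) under 1 CPM, 0.47 at 1 to 10 CPM, 0.28 at 10 to 100 CPM, 0.24 at 100 to 1000 CPM and 0.28 over 1000 CPM. A gene with few reads needs a larger change to be called, so these sizes cannot be compared between classes. The part of read number in the shares called was not tested.

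**Figure D2:**
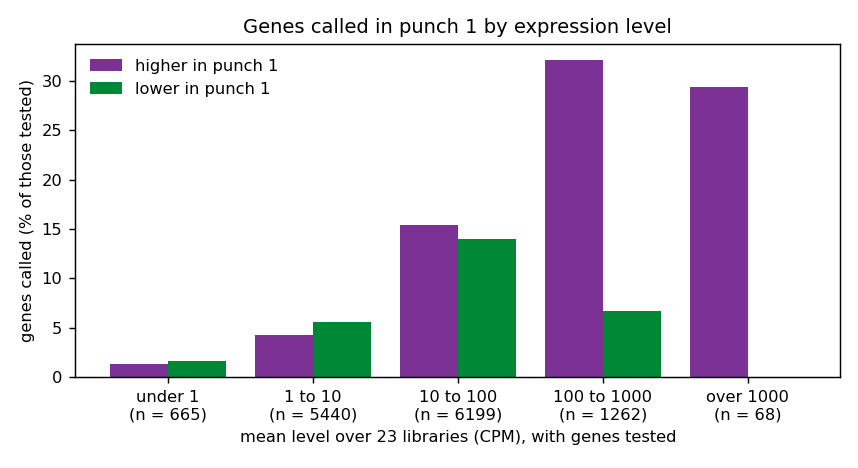
Share of tested genes (vertical axis, %) called higher (purple) or lower (green) in punch 1, by class of mean level (horizontal axis, CPM; n is the number of genes tested). From 100 CPM upward the genes called higher outnumber those called lower, 405 against 84 and 20 against 0.

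The balance of higher and lower calls depended on scaling. TMM scaling, used here, and RLE scaling set the bulk of genes equal between libraries, and upper-quartile scaling their upper quartile. TMM and RLE scaling gave 56.1% and 55.8% of calls higher in punch 1, upper-quartile scaling 46.5% (1375 higher, 1582 lower) and library size alone 3.1% (99 higher, 3093 lower). With library size alone the median over all genes moved from -0.00 to -0.16, and to -0.09 without punch 1 of treated animal 1 (429 higher, 2141 lower). Relative to that median the genes of 100 to 1000 CPM lay at 0.09 and those over 1000 CPM at 0.19 with either scaling. In absolute terms the median of the 100 to 1000 CPM class turned with library size alone, from 0.09 to -0.07 (10 called higher, 217 lower). That of the class over 1000 CPM fell from 0.19 to 0.02 and stayed above 0, with 0 called higher and 5 lower.

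The 12 most abundant genes did not separate punch 1. None of them was called, the edgeR adjusted p ran from 0.0544 to 0.498, and their median log2 fold change was 0.34, or 0.13 without punch 1 of treated animal 1. In treated animal 1 they lay 1.29 to 1.86 higher in punch 1 on the log2 scale. Their share of reads was 3.21 ± 9.94 percentage points higher in punch 1 (SD, n = 8, higher in 5 of 8 animals, exact sign-flip permutation p = 0.492, adjusted p = 0.656 over 4 measures) and 0.00928 points higher without treated animal 1 (exact permutation p = 0.984). Without these 12 genes in the fit, 2896 genes were called.

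Constancy over animals was uneven. In 806 of the called genes (27.9%) punch 1 lay on the same side of its animal's other punches in 8 of 8 animals, 456 higher and 350 lower. Over all genes tested 951 (6.98%) did so, 516 higher (3.78%) and 435 lower (3.19%). The called genes were picked on the same values, so this share describes them and tests nothing. In 799 higher and 634 lower genes 7 of 8 animals went 1 way, and in 57 genes fewer than 6 did. All 15 within-animal pairs with punch 1 had the same sign in 164 called genes, 102 higher and 62 lower, of 165 such genes over all tested (1.21%).

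The animals differed in how far they followed the shared direction. The called genes and their direction come from a fit that includes these animals, so the shares describe them and test nothing. Non-treated animal 3, treated animal 2 and non-treated animal 1 had the direction of the fit in 99.2%, 98.4% and 97.5% of the called genes, with median differences of 0.41, 0.47 and 0.58 (log2) in that direction. The value of non-treated animal 1 rests on 1 pair of libraries. Treated animal 3 and non-treated animal 2 followed with 93.9% and 90.3%, and treated animal 1 with 83.9%. Non-treated animal 4 and treated animal 4 had 71.5% and 68.7%, with median differences of 0.09 and 0.06. In both of the last animals punch 1 held fewer reads than the mean of the other punches, with a difference of -2425540 and -1647260 reads, as it did in treated animal 3 (-928040 reads). The part of depth in these differences between animals was not tested. With every library thinned to 6761946 reads 2343 genes were called, 2145 of them among the 2886. This is a count over all animals and does not bear on single ones.

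The count of calls fell most when 1 of 3 animals was left out. Leaving out non-treated animal 3 left 838 genes, treated animal 2 left 917 and non-treated animal 1 left 1549, whereas leaving out any of the other animals left 2109 to 3185. Without these 3 animals together 0 genes were called by edgeR, with 1762 at an unadjusted p under 0.05. They were picked after the data were seen by their high scores on the first component, which favours such a loss, 5 animals remained, and no other set of 3 was left out. Their within-animal differences were the most alike across the 13634 genes. The choice by high scores on 1 component of the same values favours this too, so the correlations are a description. Pearson r was 0.497 between non-treated animals 1 and 3, 0.465 between non-treated animal 1 and treated animal 2, and 0.458 between non-treated animal 3 and treated animal 2. Over all 28 pairs of animals r ran from -0.08 to 0.497 with a median of 0.112 and was above 0 in 23. Animals share no library, but all are scaled together, and genes are not independent replicates.

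**Figure D3:**
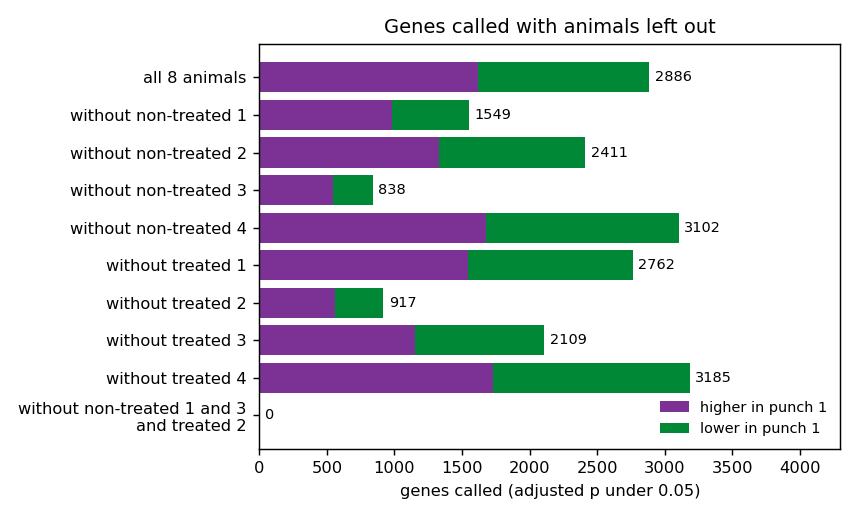
Genes called between punch 1 and punches 2 and 3 (horizontal axis, count; purple higher, green lower in punch 1) with all 8 animals and with the animals named on the vertical axis left out. The count falls from 2886 to 838, 917 and 1549 when non-treated animal 3, treated animal 2 or non-treated animal 1 is dropped, and to 0 when these 3 animals are all left out.

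Individual genes show the pattern. Among the called genes, 730 had the same sign in 8 of 8 animals and a mean of at least 5 CPM, 429 higher and 301 lower. The largest rise among them was in ENSMFAG00000038727. It stood at 12.5 to 41.4 CPM in punch 1 (median 34.3), 7.01 to 21.6 CPM in punch 2 (median 15.2) and 5.29 to 30.1 CPM in punch 3 (median 17.1). The ranges overlap between animals, but punch 1 was the highest punch of every animal, in 15 of 15 pairs. Means were 31.5 ± 10.3, 14.97 ± 5.197 and 16.8 ± 7.74 CPM (SD, n = 8, 8 and 7), and punch 1 was 1.02 higher on the log2 scale (SE 0.142, edgeR adjusted p = 0.00148). Within animals the difference ran from 0.22 in non-treated animal 4 and 0.24 in treated animal 4 to 2.01 in non-treated animal 2.

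ENSMFAG00000042192 was the firmest rise among genes of at least 50 CPM. It had 106 to 216 CPM in punch 1 (median 158), 83.7 to 144 CPM in punch 2 (median 113) and 78.2 to 165 CPM in punch 3 (median 119). Its log2 change was 0.47 (SE 0.0591, edgeR adjusted p = 0.000814), which is 38.6% higher in punch 1. The 8 animals ran from 0.09 in treated animal 4 to 0.70 in non-treated animal 1, and 14 of 15 pairs were higher in punch 1. The exception was punch 2 of treated animal 4, at 113.55 CPM against 113.42 CPM in its punch 1.

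ENSMFAG00000030301, the largest fall among the genes with 1 sign in 8 of 8 animals and at least 5 CPM, was a low gene with 30 to 158 reads per library. It had 2.43 to 8.12 CPM in punch 1 (median 4.40), 3.22 to 9.92 CPM in punch 2 (median 6.56) and 4.97 to 10.2 CPM in punch 3 (median 7.52). Its change was -0.64 on the log2 scale (SE 0.147, edgeR adjusted p = 0.00803), or -35.7%, and 13 of 15 pairs were lower in punch 1. Its differences ran from -0.03 in treated animal 4 to -1.45 in treated animal 3.

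ENSMFAG00000039256, the firmest fall at 50 CPM or more, was the most even over animals of the 4 named genes. It had 41.3 to 60.0 CPM in punch 1 (median 48.1), 57.6 to 66.0 CPM in punch 2 (median 62.5) and 47.9 to 74.6 CPM in punch 3 (median 59.7). Its change was -0.33 on the log2 scale (SE 0.0543, edgeR adjusted p = 0.00181), or -20.6%, with 15 of 15 pairs lower in punch 1. The 8 animals lay between -0.14 and -0.49, with an SD of 0.122, against 0.642 for ENSMFAG00000038727. Without the 3 animals named above the log2 fold changes were 1.00 for ENSMFAG00000038727, 0.42 for ENSMFAG00000042192, -0.50 for ENSMFAG00000030301 and -0.32 for ENSMFAG00000039256, close to those over 8 animals except for ENSMFAG00000030301. The edgeR adjusted p-values over the 5 remaining animals were 0.200 for 3 of them and 0.327 for ENSMFAG00000030301.

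**Figure D4:**
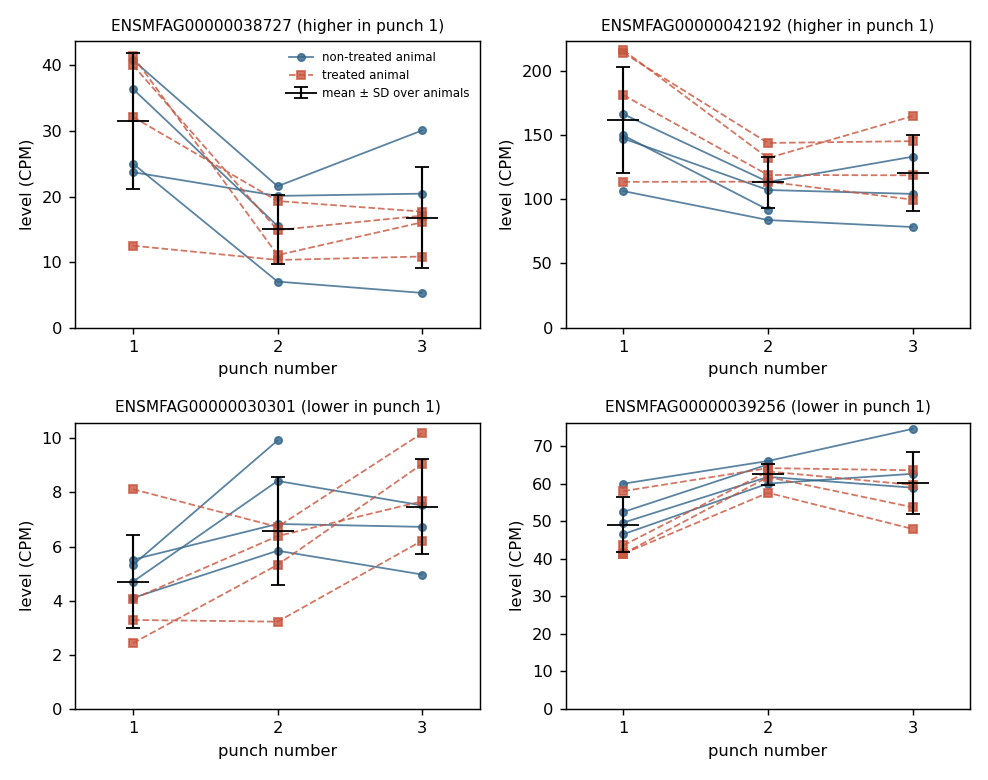
Level (vertical axis, CPM, starting at 0) of the 4 named genes in punches 1, 2 and 3 (horizontal axis), with 1 line per animal (blue circles non-treated, red squares treated) and black bars for mean ± SD over animals. In ENSMFAG00000038727 and ENSMFAG00000039256 the lines of all 8 animals leave punch 1 in the same direction.

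The next 16 genes by size under the same criteria, 7 higher and 9 lower, were moderate in level, with means of 5.87 to 88.2 CPM. Those higher in punch 1 had log2 fold changes of 0.55 to 0.90 and those lower -0.54 to -0.63, with edgeR adjusted p-values up to 0.0115. In 5 of the 16 all 15 pairs had the same sign.

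Fitted apart, the treatment groups gave 3 and 0 calls with edgeR and limma-voom, and more with DESeq2 or no filter on low counts. A filter of at least 1 CPM left the edgeR counts at 3 and 0. In the 4 non-treated animals edgeR called 3 of 13747 genes (0.0218%), 1 higher and 2 lower in punch 1, with 3420 at an unadjusted p under 0.05 (24.9%). In the 4 treated animals it called 0 of 13677 (0%), as did limma-voom, and DESeq2 called 141. The smallest edgeR adjusted p there was 0.0594, and 2530 genes had an unadjusted p under 0.05 (18.5%). DESeq2 called 670 genes in the non-treated animals, and with no filter on low counts edgeR called 1154 in the non-treated and 554 in the treated. Single animals moved these counts: the non-treated gave 1331 without animal 4, 1 without animal 1 or 3 and 0 without animal 2, and the treated gave 545 without animal 4 and 4 without animal 3. With the spread estimated over both groups, an alternative added after the data were seen, the joint fit called 312 genes in the non-treated animals (2.29%, 209 higher and 103 lower) and 9 in the treated animals (0.066%, all higher). In both groups 3 genes were called, all with the same sign, which is 0.962% of the 312 and 33.3% of the 9.

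The direction was nevertheless largely shared between the groups, which have no library in common. Of 3395 genes at an unadjusted p under 0.05 in the non-treated animals and tested in both groups, 90.0% had the same sign in the treated animals, against 74.2% of all 13413 genes tested in both. In the treated animals 36.1% of them had the same sign and an unadjusted p under 0.05, against 17.0% of all genes, and 0.884% had the opposite sign at that p, against 1.74%. Chosen in the treated animals instead, 2516 genes had the same sign in the non-treated animals in 90.7% of cases. The median difference in the chosen direction was 0.19 (log2) in the treated animals for genes chosen in the non-treated, which had a median size of 0.36 where they were chosen. The genes called over 8 animals had medians of 0.31 and -0.35 in the non-treated and 0.25 and -0.26 in the treated animals. Between single animals of different groups the likeness was uneven. Over 16 such pairs Pearson r across genes had a median of 0.112 and was above 0 in 14. It ran from -0.03 to 0.465, and the highest values, 0.465 and 0.458, were those of treated animal 2 with non-treated animals 1 and 3. The shares above are over genes, which are not independent replicates.

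**Figure D5:**
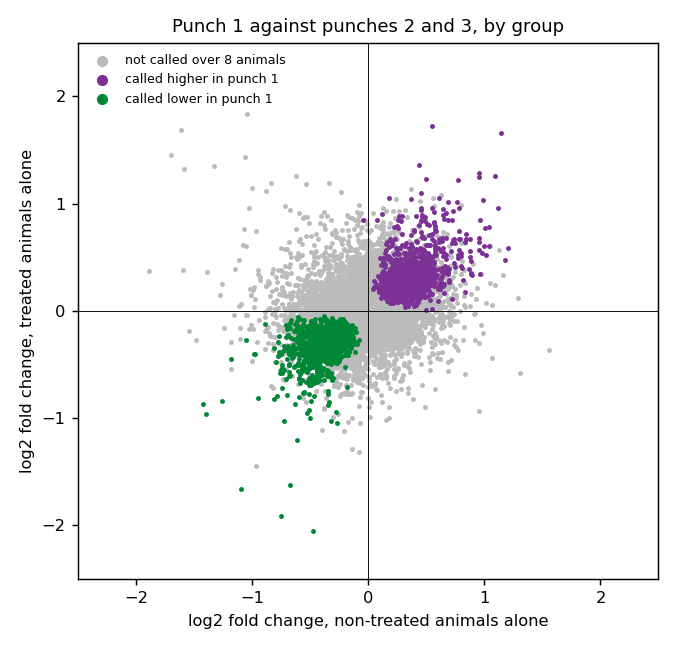
Log2 fold change of punch 1 against punches 2 and 3 in the 4 treated animals alone (vertical axis) and in the 4 non-treated animals alone (horizontal axis), 1 point per gene, coloured by the call over 8 animals. The called genes lie in the 2 quadrants of equal sign, as the fit over both groups favours, and 1 gene falls outside the axes.

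The 4 named genes were chosen for 1 sign in 8 of 8 animals and for their size or p over both groups, which favours like values in the groups, so their values are a description. ENSMFAG00000038727 had log2 fold changes of 0.99 (SE 0.201) in the non-treated and 1.04 (SE 0.160) in the treated animals, and the difference from the joint fit was 0.04 (SE 0.304). ENSMFAG00000042192 had 0.47 and 0.46, ENSMFAG00000030301 -0.57 and -0.65, and ENSMFAG00000039256 -0.32 and -0.37. None of the 4 passed the threshold in either group alone, with edgeR adjusted p-values of 0.0662 to 0.0885 in the non-treated and 0.0594 to 0.156 in the treated animals.

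A test of the difference between the groups called 1 of 13634 genes (0.00733%), with 593 at an unadjusted p under 0.05 (4.35%). That gene, ENSMFAG00000036654, chosen after its values were seen, fell in punch 1 of the non-treated animals and was not called in the treated. In non-treated animals 1 to 4 it had 3.04, 5.85, 2.47 and 17.8 CPM in punch 1, against 14.7, 13.9, 6.69 and 43.5 CPM in punch 2. In treated animals 1 to 4 it had 21.7, 17.95, 14.6 and 1.96 CPM in punch 1, against 20.03, 5.33, 3.26 and 1.52 CPM in punch 2. In punch 3 it had 14.7, 6.82 and 24.0 CPM in non-treated animals 2 to 4 and 12.1, 4.46, 1.65 and 2.65 CPM in treated animals 1 to 4. Punch 1 was thus the lowest punch in all 4 non-treated animals and the highest in 3 treated animals. The punch 1 effect was -1.33 on the log2 scale (SE 0.188, edgeR adjusted p = 0.0192) in the non-treated and 1.35 (SE 0.310, adjusted p = 0.123) in the treated animals. The difference was 2.67 (SE 0.424, edgeR adjusted p = 0.0441), and over the fits that left out 1 animal it ran from 2.22 to 3.02 with adjusted p-values of 0.00331 to 0.439, past the threshold only without treated animal 1 or treated animal 4. The count of genes in this test was 2 and 11 without those animals and 0 without any of the other 6.

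The other 2 genes called in the non-treated animals alone were also named after their values were seen. ENSMFAG00000039227 ran from 0.71 to 323 CPM over all libraries, and in treated animal 3 it had 98.9, 20.5 and 2.74 CPM in punches 1, 2 and 3. It was lower in punch 1 of the non-treated animals (log2 fold change -1.61, edgeR adjusted p = 0.025) and had 1.68 in the treated animals (adjusted p = 0.139), a difference of 3.27 that missed the threshold (adjusted p = 0.114). Without treated animal 4 that difference was 3.605 (edgeR adjusted p = 0.0123), and with library size alone 3.08 (adjusted p = 0.00335). It missed the threshold without any other single animal (edgeR adjusted p = 0.119 to 0.687). With RLE and upper-quartile scaling it missed as well (edgeR adjusted p = 0.118 and 0.102). ENSMFAG00000038118 was higher in punch 1 in the non-treated animals (0.60, edgeR adjusted p = 0.0279), had 0.20 in the treated animals (adjusted p = 0.247), and was among the genes called over 8 animals (0.41, adjusted p = 0.00343).

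The genes called for punch 1 met the treatment difference about as often as other genes did. With the punches of each animal summed, 293 of the 2886 (10.2%) had an unadjusted p under 0.05 between the groups, where 10.2% of all genes tested had one, and 7 of 13634 passed the adjusted threshold (0.0513%). ENSMFAG00000036776, chosen after its values were seen, had the firmest difference between the groups (log2 fold change -2.09, treated minus non-treated). It had 3.57 to 23.1 CPM in punch 1, 4.21 to 18.9 CPM in punch 2 and 1.91 to 19.1 CPM in punch 3. Its punch 1 effect was 0.27 on the log2 scale (SE 0.115, edgeR adjusted p = 0.0900), above 0 in 5 of 8 animals, and was not called.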

How the data were processed

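The authors deposited raw read counts by Ensembl gene ID, with 1 file per punch and 29324 IDs in each. STAR 2.5.3a and HTSeq 0.10.0 were used, per the submitters' processing notes. Genome build and annotation, not given in the sources used here, were not needed. The labels' protocols name a polyadenylation selection, a stranded kit and no molecular identifiers.

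Punch and animal were read from the labels, and punches pair because they come from the same animal. No library was a repeat of another: in chi-square tests of all 276 library pairs, on genes holding 20 or more reads together, the smallest value per degree of freedom was 3.92. Genes were kept by filterByExpr (minimum count 10, groups by punch number), scaled by TMM and fitted with edgeR 4.0.16 in R 4.3.3 (quasi-likelihood test, Benjamini-Hochberg adjustment over all genes tested, threshold 0.05). Animal and punch number were terms, and the contrast was punch 1 minus the mean of punches 2 and 3. The same fit was made in each treatment group, and 1 joint fit tested the difference between groups. CPM use TMM scaling, and log2 CPM a prior count of 2. Exact tests were two-sided sign flips over animals. The tests were tried on simulated data. Alternatives included limma-voom (limma 3.58.1) and DESeq2 1.42.0, where 1586 adjusted p-values stayed missing.

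The comparison and all choices were made with earlier results of these data known. Of the 40596 entries of the gene table used (assembly T2T-MFA8v1.1), 0 carry an Ensembl ID, and 0 IDs matched. So 14 marker lists were not run, and no gene symbol, sequence or marker check of the tissue is given. Named by rule, per direction, were the largest change at 5 CPM or more and the smallest adjusted p at 50 CPM or more, among called genes of 1 sign in 8 of 8 animals. IDs outside the rule are marked as chosen after their values were seen.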

Additional observations from a re-analysis of the deposited data

Results flagged for a closer look

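Of 19 sets of 7 or 8 values examined over animals or libraries, 1 had a member far from the others, and chance gives about 1 in 20 such sets. The share of reads in the 12 most abundant genes was 25.6 percentage points higher in punch 1 of treated animal 1 than in its other punches, where the other animals ran from -8.12 to 5.47 points. Without that library 2976 genes were called for punch 1 in place of 2886, 2473 of them in common.

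The punch 1 effect of ENSMFAG00000036654 differed between treated and non-treated animals by 2.67 on the log2 scale in the test of that difference (edgeR adjusted p = 0.0441). Under RLE and upper-quartile scaling and library size alone it was 2.68, 2.68 and 2.501, with adjusted p-values of 0.0456, 0.0411 and 0.00115. No gene passed this test with limma-voom, with punches 2 and 3 summed, or in 6 of the 8 fits that left out 1 animal, where the adjusted p of ENSMFAG00000036654 was 0.0921 to 0.439.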

How the results depend on the processing

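The thinned libraries, the fits without single libraries or the 3 animals, and the joint spread were chosen after the data were seen, and the cause of a change was not tested unless the setting itself leaves out samples or genes. A like count did not always mean the same genes. Below, punch 2 alone and punch 3 alone name fits of punch 1 against that punch, with the libraries of the remaining punch left out. With library size alone 3192 genes were called for punch 1, 1366 of them among the 2886. With library size alone and without punch 1 of treated animal 1 there were 2570, 1665 of them among the 2886. The count for punch 1, 2886, stayed within 1.5 times in 18 of 28 alternatives, both of these included. It was 1220 with punches 2 and 3 summed, 640 at the stricter threshold of 0.01, 9 with no replicate block (the animal pairing ignored), 2 in punch 2 alone, 924 in punch 3 alone, 1132 with punch 3 of non-treated animal 1, 838 to 3185 when each animal was left out, and 0 without non-treated animals 1 and 3 and treated animal 2. At the looser threshold of 0.1 it was 4329. In the non-treated animals alone, 3, it was 48 with library size alone, 670 with DESeq2, 1154 with no filter, 118 with punches 2 and 3 as 1 level, 54 with them summed, 945 and 0 at the looser and stricter thresholds, 0 with no replicate block, 36 in punch 2 alone, 0 in punch 3 alone, 0 with the sparse library, 312 with the spread over both groups, and between 0 and 1331 in turn without each animal, the highest without animal 4. In the treated animals alone, 0, it was 291 with library size alone, 141 with DESeq2, 554 with no filter, 3 at the looser threshold, 1 in punch 2 alone, 9 with the spread over both groups, and between 0 and 545 in turn without each animal, the highest without animal 4. The count of genes that differed between the groups, 1, was 5 with library size alone, 9 with DESeq2, 0 with limma-voom, 41 with no filter, 0 with punches 2 and 3 summed, 4 at the looser and 0 at the stricter threshold, 0 with no replicate block, in either punch alone and with the sparse library, and from 0 to 11 in turn without each animal. Between punches 3 and 2, 0 by edgeR, it was 4 with DESeq2 and between 0 and 13 in turn without each animal. The share of reads (0.00928 to 4.83 points when each animal was left out) and the distance (0.0151 to 0.047) missed their exact tests in every alternative run. The 4 named genes kept their direction in every alternative run. All 4 missed the threshold with no replicate block and without the 3 animals, ENSMFAG00000042192, ENSMFAG00000030301 and ENSMFAG00000039256 missed it in punch 2 alone (adjusted p 0.0643, 0.0949 and 0.0758), and ENSMFAG00000030301 missed it with the sparse library (0.0554). The range of their edgeR, limma-voom and DESeq2 adjusted p-values was 4.08e-09 to 0.327. Under 1 CPM 20 of 665 genes were called; the part of depth in that share was not tested.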
